A study of Rattus norvegicus with 24 samples.

Results

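The 8 genes described present antigen on MHC class II molecules: RT1-Da, RT1-Db1, RT1-Ba, RT1-Bb, RT1-DMa, RT1-DMb, Cd74 and Ciita. They were chosen by name, each was found by its symbol in the array's gene table, and each had exactly 1 probe set, so the members are 8 of 14506 named genes and 8 of 29214 probe sets. No member shared its probe set with another gene. The study measured how inhaled formaldehyde, an irritant gas, acts on gene expression in the nose and in the blood. Male Fischer rats, about 8 weeks old when the study began, breathed 2 ppm formaldehyde made from a heavy-isotope paraformaldehyde for 6 hours a day over 7 or 28 days. Control rats sat in the same nose-only tubes with room air. RNA was taken from the maxilloturbinate, called nasal epithelium in the labels, and from white blood cells separated from heart blood in cell preparation tubes. The groups were exposed and control nose at 7 days, exposed and control nose at 28 days, and the same 4 groups of blood, with 3 Affymetrix arrays in each of the 8 groups and 24 arrays in all. The labels do not say that each array stands for another animal, so p-values measure the spread between these arrays, and rats were housed up to 2 to a cage.

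MHC class II molecules are pairs of an alpha and a beta chain that carry peptides from swallowed proteins to the surface of dendritic cells, macrophages and B cells, where helper T cells read them. Cd74, the invariant chain, escorts new pairs to the endosome and blocks their groove, and the DM pair then exchanges the remnant of Cd74 for a peptide. Ciita is the coactivator that the class II promoters need; it binds no DNA itself and acts through a complex of RFX, CREB and NF-Y held on the X and Y boxes of those promoters, and interferon-gamma raises it in many other cells, epithelium included. In rats the RT1-B genes correspond to human HLA-DQ and the RT1-D genes to human HLA-DR.

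The stretch just before the start of each gene is shown because the X and Y boxes lie there. Of the 8 members 6 had an entry in the RefSeq promoter table (build GRCr8), and RT1-DMb and Ciita are named only. Each line gives the 120 bases before the gene's start, 5′ to 3′ on the strand of the gene, with capitals for the letters searched: CTGATTGG, the core of the Y box, the shorter CCAAT or its reverse complement ATTGG, and AGCAAC, a core of the X box.
RT1-Da, chr20:4515295-4515414, plus strand: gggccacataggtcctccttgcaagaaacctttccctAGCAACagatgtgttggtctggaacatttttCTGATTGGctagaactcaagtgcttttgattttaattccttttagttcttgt
RT1-Db1, chr20:4560163-4560282, minus strand: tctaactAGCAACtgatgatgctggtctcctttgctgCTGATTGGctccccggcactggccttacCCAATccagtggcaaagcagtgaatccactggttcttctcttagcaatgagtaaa
RT1-Ba, chr20:4576937-4577056, plus strand: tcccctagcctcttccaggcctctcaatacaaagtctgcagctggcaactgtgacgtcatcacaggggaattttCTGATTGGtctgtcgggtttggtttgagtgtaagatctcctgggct
RT1-Bb, chr20:4604119-4604238, minus strand: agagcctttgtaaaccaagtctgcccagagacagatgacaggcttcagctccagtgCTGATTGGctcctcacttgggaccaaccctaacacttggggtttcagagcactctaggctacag
RT1-DMa, chr20:4712336-4712455, minus strand: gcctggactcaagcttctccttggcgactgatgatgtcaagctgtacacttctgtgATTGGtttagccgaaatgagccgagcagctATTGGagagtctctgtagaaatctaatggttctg
Cd74, chr18:56527086-56527205, plus strand: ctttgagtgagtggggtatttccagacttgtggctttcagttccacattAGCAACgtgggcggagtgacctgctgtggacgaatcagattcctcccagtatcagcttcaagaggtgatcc
Both strands of the whole 300-base entries were searched, 250 bases before and 50 after the start. CTGATTGG was in 4 of the 6 member promoters, against 3.5% of 33469 promoters in the table. Its first base lay 52 bases before the start in RT1-Da, 83 in RT1-Db1, 46 in RT1-Ba and 64 in RT1-Bb, on the strand of the gene in all 4. CCAAT, whose reverse complement forms the end of CTGATTGG, was in 6 of 6, against 37.5% of all promoters. AGCAAC was in 3 of 6, against 14.7%, and its first base lay 31 bases before that of CTGATTGG in RT1-Da and 30 bases before it in RT1-Db1. The CCAAT letters of Cd74, and a second match in RT1-Bb, lay outside the 120 bases shown. These are exact matches of letters, and binding was not measured. A box that differs by a letter is missed, so a promoter without a match is not shown to lack the box. RefSeq's gene table places 6 members on chromosome 20, Cd74 on chromosome 18 and Ciita on chromosome 10.

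Values below are log2 of the deposited intensity, and levels of different genes are not set against each other because each probe set has its own brightness. Median intensities of whole arrays ran from 305 to 312 in nose at 7 days, 163 to 172 in nose at 28 days, 175 to 181 in blood at 7 days and 113 to 119 in blood at 28 days. The days thus lay on different scales, and levels were compared within a day. In control nose the difference of 28 days minus 7 days had a median of −0.89 over all probe sets and ran from −1.97 to −0.80 over the members. All 8 members passed the filter on dim probe sets, which removed the lowest 25% of mean intensities in each tissue, in both nose and blood. Ciita was dim in nose, at 6.64 to 7.12 on the 28 day arrays, beside a filter level of 6.61 over the nasal arrays. With a filter at the median Ciita was not tested in nose. Of the nasal epithelium markers on the array, Epcam, Cdh1, Krt8, Krt18 and Foxj1 passed that filter in nose and Scgb1a1 did not, while in blood Epcam and Scgb1a1 did not. Control nose also held a library that stood apart at each day, replicate 1, in which the mean of 6 olfactory neuron markers was 8.97 at 7 days, against 10.75 and 10.43 in replicates 2 and 3, and 7.40 at 28 days, against 10.40 and 10.11. In blood control replicate 2 at 28 days stood apart in the mean of 6 neutrophil markers, at 10.49 against 7.78 and 7.68, and so did control replicate 2 at 7 days, at 10.12 against 8.55 and 8.57.

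In nasal tissue exposed for 7 days all 8 class II genes fell, with changes from −44.4% for RT1-Bb to −21.4% for RT1-DMa. The fall took in both classical pairs, the DM editor, the invariant chain and the coactivator. The background share was 7.84% of 21910 probe sets lower at an adjusted p under 0.05 in limma. The median difference over the members was −0.59, against −0.05 over all probe sets, of which 60.38% were below 0.

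The RT1-D pair forms one of the classical peptide-presenting molecules. RT1-Da, its alpha chain, had log2 intensities of 10.04, 10.58 and 10.54 in exposed nose, against 11.26, 10.95 and 11.18 in control nose. The exposed arrays were all below the control arrays, with exposed replicate 1 lowest. RT1-Da fell by 0.74 ± 0.14 (SE) on the log2 scale (adjusted p = 0.00950, limma). RT1-Db1, the beta chain of the same molecule, had 8.57, 9.04 and 9.03 in exposed nose, against 9.77, 9.49 and 9.56 in control nose. Its arrays were ordered in the same way, with no overlap, and it fell by 0.73 ± 0.14 (SE) (adjusted p = 0.00999). The fitted difference of the alpha chain minus that of the beta chain was −0.02.

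The RT1-B pair is the other classical molecule. RT1-Ba, its alpha chain, had 10.49, 10.87 and 10.85 in exposed nose, against 11.41, 11.19 and 11.33 in control nose, and fell by 0.57 ± 0.12 (SE) (adjusted p = 0.0142). Its groups did not overlap. RT1-Bb, the beta chain, had 9.60, 10.22 and 10.19 in exposed nose, against 10.92, 10.70 and 10.93 in control nose. Exposed replicate 1 was well below the other exposed arrays, and all 3 were below the controls. RT1-Bb fell by 0.85 ± 0.22 (SE) (adjusted p = 0.0263), the member with the largest fitted difference and also the largest standard error of the 8.

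The DM pair is not a presenting molecule but the editor that loads peptides. RT1-DMa had 10.51, 10.71 and 10.66 in exposed nose, against 11.06, 10.83 and 11.04 in control nose. The groups came closer here than in the chains above but did not overlap, and the fall was 0.35 ± 0.10 (SE) (adjusted p = 0.0339). RT1-DMb had 8.85, 9.23 and 9.17 in exposed nose, against 9.85, 9.58 and 9.65 in control nose, with no overlap. It fell by 0.61 ± 0.11 (SE) (adjusted p = 0.00821, the lowest among the members). The fitted difference of the alpha chain minus that of the beta chain was 0.27 for DM and 0.27 for RT1-B, and neither was tested.

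Cd74, the invariant chain, had 12.31, 12.76 and 12.71 in exposed nose, against 13.10, 12.96 and 13.07 in control nose, and fell by 0.45 ± 0.13 (SE) (adjusted p = 0.0370). Ciita, the coactivator, had 7.19, 7.30 and 7.40 in exposed nose, against 7.71, 7.66 and 7.84 in control nose. It fell by 0.44 ± 0.11 (SE) (adjusted p = 0.0202). In neither gene did the groups overlap. Non-overlap with the exposed arrays lower held for 8 of 8 members and for 32.4% of all probe sets.

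**Figure D1:**
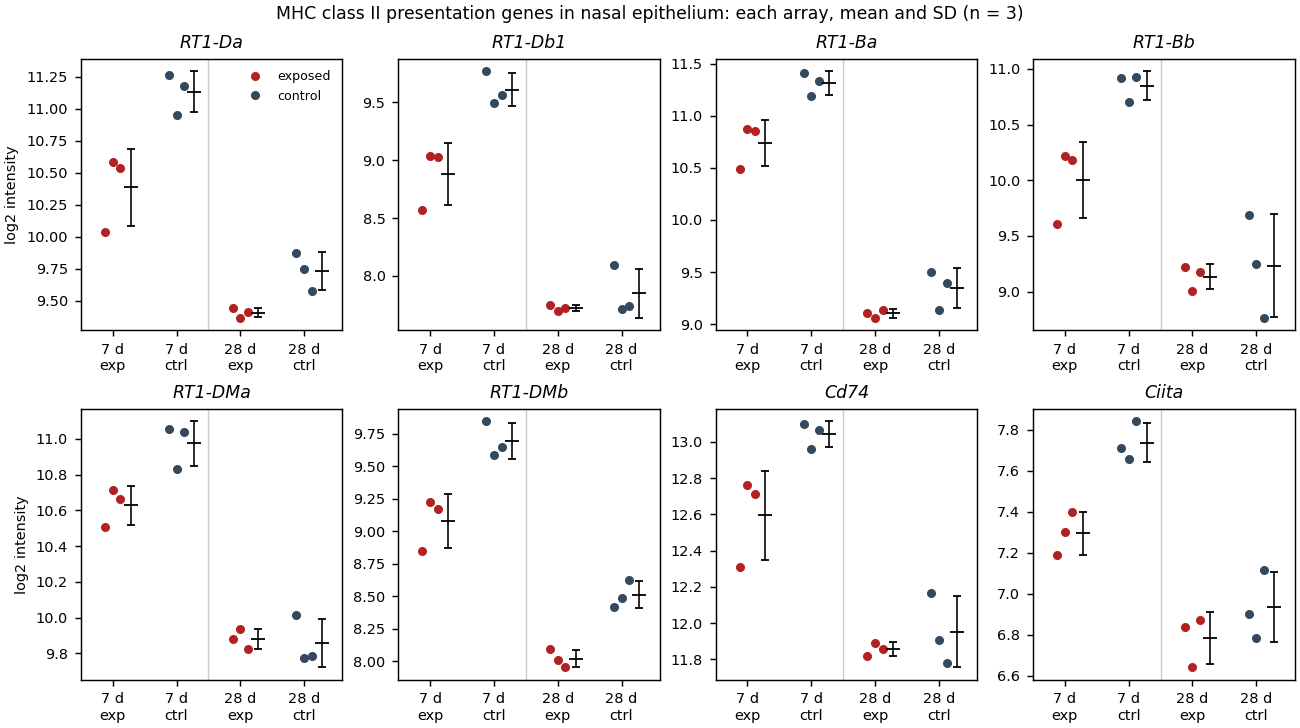
Log2 intensity of each member on every nasal array (points), with the group mean and SD (bars, n = 3), exposed left of control at 7 and 28 days. At 7 days the exposed points lie below the control points in all 8 panels, while at 28 days they do so for RT1-Da and RT1-DMb.

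The members varied together from array to array at 7 days. The mean of the 8 members was 9.69, 10.09 and 10.07 in exposed nose, against 10.63, 10.42 and 10.57 in control nose, or 9.95 ± 0.22 against 10.54 ± 0.11 (SD, n = 3 each). Exposed replicate 1 was the lowest exposed array and control replicate 2 the lowest control array for 8 of 8 members. Several of the calls did not hold when an array was left out, which also made its group smaller. Some of the lost calls came with a smaller difference and some with a larger one. Without control replicate 1, the library with few olfactory transcripts, 2 members passed, RT1-Da at −0.68 (adjusted p = 0.0490) and RT1-DMb at −0.54 (adjusted p = 0.0433), and the other 6 ran from −0.81 for RT1-Bb to −0.31 for RT1-DMa. In that fit 1.19% of all probe sets were lower. Without exposed replicate 1 there were 3 calls and a median of −0.47, beside 1.37% of all probe sets lower. Without control replicate 3 there were 4 calls, beside 2.82%. RT1-Da and RT1-DMb passed in each of the 6 fits without 1 of these arrays, and all 8 members stayed below 0 in all of them.

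Genes that feed, edit or read the same route were counted from 6 lists of 52 genes, of which 48 had a probe set and 47 were tested in nose. At 7 days 9 fell, 0 rose and 38 did not pass, with a median of −0.23, beside the 7.84% of all probe sets that were lower. Without control replicate 1 the count was 4 of 46 tested, beside 1.19%, and without exposed replicate 1 it was 5, beside 1.37%. In interferon-gamma signalling 3 of 7 fell. Irf1, the interferon-induced factor that acts on the Ciita promoter, averaged 8.95 ± 0.22 in exposed nose and 9.71 ± 0.18 in control nose (SD, n = 3 each), a fall of 0.76 ± 0.14 (SE, adjusted p = 0.00739). Irf8, a transcription factor of myeloid cells and B cells, fell by 0.72 ± 0.12 (adjusted p = 0.00549). Ifngr1, the ligand-binding chain of the interferon-gamma receptor, fell by 0.61 ± 0.13 (adjusted p = 0.0123). The kinase Jak2 was at 0.05 and did not pass.

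Among 11 endolysosomal genes 1 fell, Ctss, the protease that trims Cd74 in antigen-presenting cells, by 0.59 ± 0.11 (adjusted p = 0.00802). It averaged 9.95 ± 0.11 in exposed nose and 10.54 ± 0.06 in control nose. Of 13 genes of MHC class I presentation 5 fell: the immunoproteasome subunits Psmb9 (by 0.71), Psmb8 (by 0.61) and Psmb10 (by 0.46), the proteasome activator Psme1 (by 0.36) and B2m, the light chain of class I molecules (by 0.30). Psmb10 passed in each of the 6 fits without 1 array, Psmb9 and Psmb8 in 3, B2m in 2 and Psme1 in 1. When exposed replicate 1, control replicate 1 or control replicate 3 was left out, Psmb10 was the 1 gene called of the 13. The peptide transporter Tap1 was at −0.64 with an adjusted p of 0.0518. The 7 genes of the DNA-bound complex gave 0 calls and a median of −0.04, with Creb1 at 0.14 and Nfyb at 0.20. Of the class II genes beyond the members 0 of 3 passed, with RT1-DOa, a chain of the DM inhibitor, at −0.18 and RT1-Ha at −0.25. Of 6 ubiquitin ligases and costimulatory genes 0 passed, with Marchf1, the ligase that removes class II from the surface, at −0.47 (adjusted p = 0.0621) and Cd86 at −0.37 (adjusted p = 0.0632).

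**Figure D2:**
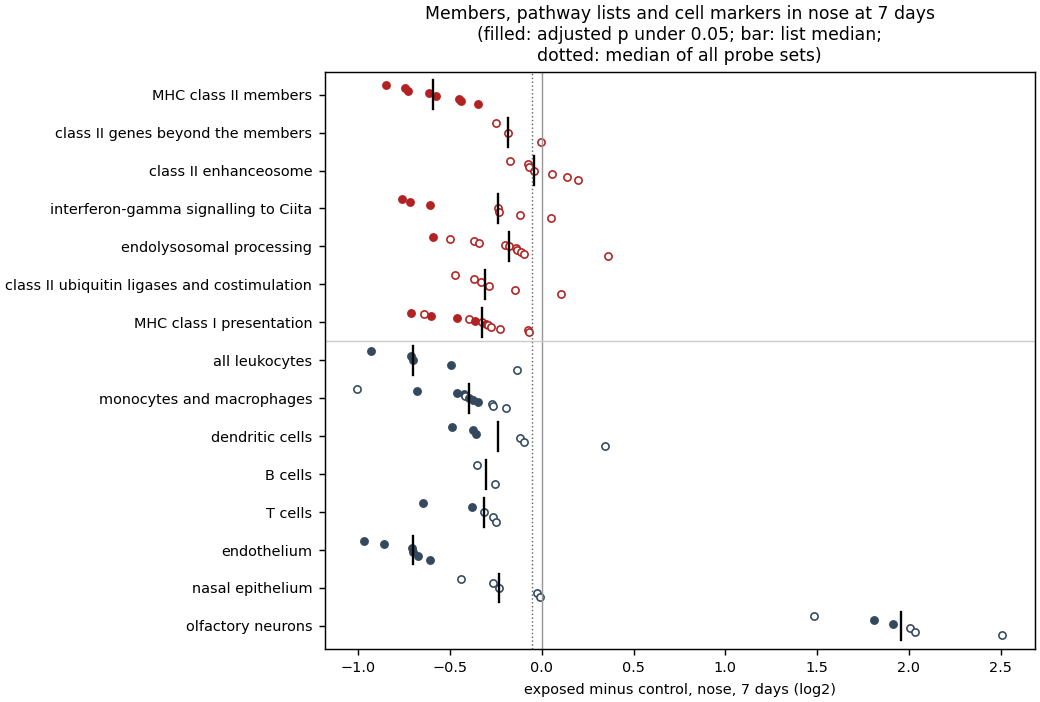
Exposed minus control difference (log2) in nose at 7 days for each tested gene of the members, the pathway lists (red) and cell marker lists (blue), filled where the adjusted p was under 0.05, with each list's median as a bar and the median of all probe sets dotted. The members have a median of −0.59, the leukocyte and endothelial markers −0.70 each, and the olfactory neuron markers 1.96.

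Markers of several cell types moved beside the members at 7 days. The shares of all probe sets to set beside these counts were 7.84% lower and 8.43% higher. Without control replicate 1 they were 1.19% and 2.67%, and without exposed replicate 1 they were 1.37% and 2.29%. Of 5 pan-leukocyte markers 4 fell (Ptprc, Cd53, Coro1a and Cd37), the median was −0.70, and their summed intensity ran from 4630.3 to 5352 in exposed nose, against 6170 to 6740 in control nose. Of 11 monocyte and macrophage markers 6 fell (median −0.40), with sums of 4352 to 5204 in exposed nose and 6337 to 7143 in control nose. Of 6 dendritic cell markers 3 fell (median −0.24, Clec9a under the filter level), and of 5 T cell markers 2 fell (median −0.31). Among the dendritic cell markers Zbtb46 averaged higher, at 7.67 in exposed and 7.33 in control nose. Ccr7 (8.30 and 8.39) and Batf3 (8.63 and 8.75) averaged slightly lower. Of the B cell markers Cd79b and Blk were tested and did not pass, and Ms4a1, Fcer2 and Cr2 were under the filter level. Endothelial markers fell in 6 of 6 (median −0.70) and erythroid markers in 3 of 4, while nasal epithelium markers gave 0 calls of 5 (median −0.23). Olfactory neuron markers rose in 2 of 6 (median 1.96), with sums of 25569 to 31744 in exposed nose and 3610 to 12291 in control nose. Array by array, the olfactory mean at 7 days was highest in exposed replicate 1 (12.23), where the members' mean was lowest (9.69). It was lowest in control replicate 1 (8.97), where the members' mean was highest (10.63). At 28 days control replicate 1 again had the lowest olfactory and the highest members' mean (7.40 and 9.33). The part of these cell types, or of the share of olfactory tissue on an array, in the members' fall was not tested. In bulk tissue fewer cells of a type, a larger share of other cells and less RNA per cell cannot be told apart.

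As a description chosen after the values were seen, the members' mean was also taken relative to the leukocyte markers' mean on the same array. That difference was 0.75 ± 0.09 in exposed nose and 0.75 ± 0.03 in control nose at 7 days (SD, n = 3 each), so the 2 groups lay within their spread. It was 0.68 ± 0.02 in exposed nose and 0.65 ± 0.05 in control nose at 28 days. No other marker list was used as the reference. At 7 days the leukocyte mean was 9.20 in exposed and 9.79 in control nose. Other list means were 8.53 and 8.97 for monocytes and macrophages, 7.63 and 7.83 for dendritic cells and 6.76 and 7.10 for B cells. They were 7.24 and 7.61 for T cells and 8.71 and 9.47 for endothelium. The likeness of the 2 groups thus refers to the leukocyte list, and its cause was not tested.

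**Figure D3:**
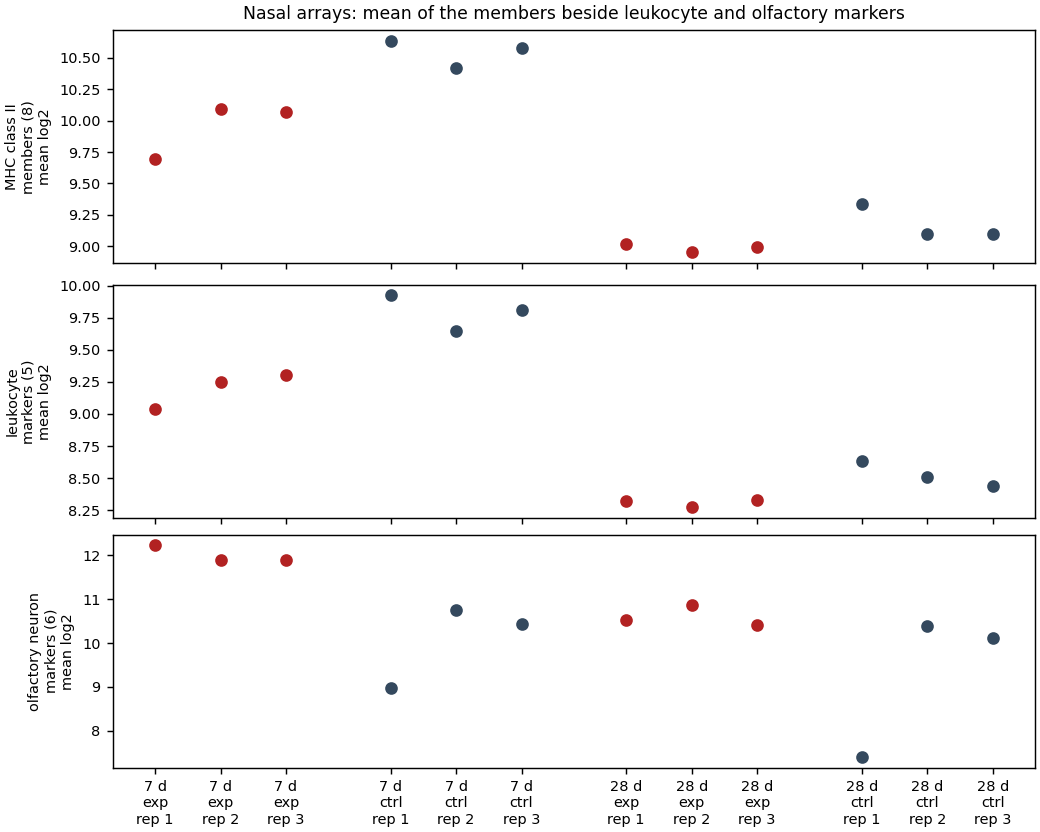
Mean log2 intensity of the 8 members, 5 leukocyte markers and 6 olfactory neuron markers on each nasal array, exposed (red) left of control (blue) at 7 and 28 days. At 7 days members and leukocyte markers are lower, and olfactory markers higher, on all 3 exposed arrays than on all 3 control arrays, and control replicate 1 has the lowest olfactory mean at both days.

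The genes most like the members' mean profile were ranked by the root mean square difference between centred profiles over the 12 nasal arrays, of 12203 genes. They were Itga5 (0.0485), ST7 (0.0486), Irf8 (0.0554), Mettl24 (0.0591) and Tnfrsf1a (0.0600), where a flat profile would be 0.249 away. Among the members themselves RT1-Ba lay closest to the mean of the others (0.0671) and RT1-Bb farthest (0.210).

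At 28 days 0 of 8 members passed in nose, where 0.00456% of all probe sets passed. At an unadjusted p under 0.05 there were 2 members and 3385 of 21910 probe sets. Of the 8 differences 7 were below 0, the median was −0.14, and that of all probe sets was 0.01. RT1-DMb had 8.09, 8.01 and 7.96 in exposed nose, against 8.42, 8.49 and 8.63 in control nose, a difference of −0.49 ± 0.11 (SE) (adjusted p = 0.115). Its partner RT1-DMa had 9.88, 9.93 and 9.83 in exposed nose, against 10.01, 9.77 and 9.78 in control nose, and differed by 0.02 ± 0.10 (SE). The alpha minus the beta difference was 0.52, and the arrays did not overlap for RT1-DMb and did for RT1-DMa.

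RT1-Da had 9.44, 9.37 and 9.42 in exposed nose, against 9.88, 9.75 and 9.58 in control nose (−0.33 ± 0.14 (SE), 95% interval −0.64 to −0.01). RT1-Db1 had 7.75, 7.70 and 7.72 in exposed nose, against 8.09, 7.71 and 7.74 in control nose (−0.13 ± 0.14 (SE)). For RT1-Da the 2 groups did not overlap, whereas for RT1-Db1 control replicates 2 and 3 lay among the exposed arrays. RT1-Ba had 9.11, 9.06 and 9.14 in exposed nose, against 9.50, 9.14 and 9.40 in control nose (−0.24 ± 0.12 (SE)). RT1-Bb had 9.22, 9.01 and 9.18 in exposed nose, against 9.69, 9.25 and 8.77 in control nose (95% interval −0.58 to 0.38), the widest spread of any member in this group of controls. Cd74 had 11.82, 11.89 and 11.86 in exposed nose, against 12.17, 11.91 and 11.78 in control nose (95% interval −0.38 to 0.18). Both groups overlapped, with control replicate 1 highest. Ciita had 6.84, 6.64 and 6.87 in exposed nose, against 6.90, 6.78 and 7.12 in control nose (95% interval −0.38 to 0.08), also with overlap.

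Non-overlap with exposed arrays lower held for 2 of 8 members and for 8.7% of all probe sets. Without control replicate 1, which stood apart, RT1-DMb passed at −0.54 (adjusted p = 0.0393), the median was −0.08, and RT1-Bb and Cd74 were above 0. In that fit 4.93% of all probe sets passed, 465 higher and 616 lower. Of the pathway genes 0 of 47 passed at 28 days. Psmb10, an immunoproteasome subunit, averaged 8.12 ± 0.04 in exposed nose and 8.57 ± 0.01 in control nose (−0.46 ± 0.08 SE, adjusted p = 0.0945). Ctsl, a lysosomal protease that trims Cd74 in mouse thymus, was at −0.64 ± 0.15 (adjusted p = 0.117). Of all marker lists 0 genes passed in nose at 28 days, with medians of −0.28 for leukocytes, −0.23 for monocytes and macrophages and 1.33 for olfactory neurons.

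The difference between the days was tested as such. In nose the exposure effect at 28 days minus that at 7 days was above 0 for 8 of 8 members, from 0.12 for RT1-DMb to 0.75 for RT1-Bb, with a median of 0.36 against 0.05 over all probe sets. The call count was 0 of 8, beside 0.1% of all probe sets (adjusted p 0.293 to 0.722), with 3 members and 2977 probe sets at an unadjusted p under 0.05. RT1-Db1 differed by 0.60 ± 0.20 (SE) (95% interval 0.16 to 1.04). A fall at 7 days that was larger than that at 28 days was therefore not shown by this test. Without control replicate 1 of 28 days 3 members passed: RT1-Db1 at 0.72 (adjusted p = 0.0364), RT1-Bb at 0.98 (adjusted p = 0.0410) and RT1-DMa at 0.45 (adjusted p = 0.0455). The share of all probe sets that passed in that fit was 12.1%, 1369 higher and 1279 lower.

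In white blood cells, which hold the B cells and monocytes that carry class II, 0 of 8 members passed at 7 days, where 0.475% of all probe sets did. At an unadjusted p under 0.05 there were 2 members, Ciita and RT1-Bb, and 3316 probe sets. The median over the members was −0.10, against 0.04 over all. Ciita had 9.12, 9.62 and 9.17 in exposed blood, against 9.62, 9.66 and 9.98 in control blood, a difference of −0.45 ± 0.14 (SE) (adjusted p = 0.159). The highest exposed array lay just below the lowest control array, and Ciita was the 1 member of 8 without overlap (10.4% of all probe sets). RT1-Bb had 10.86, 11.35 and 10.82 in exposed blood, against 11.44, 11.30 and 11.78 in control blood (−0.50 ± 0.19 (SE), adjusted p = 0.247), with exposed replicate 2 inside the control range. Its partner RT1-Ba had 12.20, 12.31 and 12.01 in exposed blood, against 12.20, 12.02 and 12.36 in control blood (−0.01 ± 0.13 (SE)).

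RT1-Da had 11.64, 11.78 and 11.34 in exposed blood, against 11.66, 11.57 and 12.05 in control blood (95% interval −0.55 to 0.21). RT1-Db1 had 10.05, 10.17 and 9.94 in exposed blood, against 10.11, 10.10 and 10.40 in control blood (95% interval −0.48 to 0.17). The RT1-D arrays interleaved in both chains. RT1-DMa had 11.25, 11.41 and 10.77 in exposed blood, against 11.25, 10.77 and 11.56 in control blood (95% interval −0.53 to 0.44). RT1-DMb had 11.04, 11.36 and 10.60 in exposed blood, against 10.94, 10.49 and 11.27 in control blood (95% interval −0.40 to 0.60). In both DM chains the arrays of a group differed from each other by more than the means of the groups did. Cd74 had 13.26, 13.40 and 13.24 in exposed blood, against 13.36, 13.24 and 13.44 in control blood (95% interval −0.27 to 0.17). Exposed replicate 2 and control replicate 3 were each the highest of their group for 8 of 8 members. Of the 48 pathway genes tested in blood 0 passed at 7 days, and 0 genes of the marker lists passed. Without control replicate 2, the library high in neutrophil markers, 2 probe sets passed in place of 104, the member count stayed 0 and their median was −0.23.

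At 28 days in blood all 8 differences were below 0 and 0 of 8 members passed, where 5.27% of all probe sets did. At an unadjusted p under 0.05 there were 5 members and 3931 of 21910 probe sets. The median was −0.33, against −0.02 over all probe sets, of which 55.83% were below 0. RT1-DMa came nearest the threshold, with 10.31, 9.73 and 10.06 in exposed blood, against 10.63, 11.17 and 10.80 in control blood. It differed by −0.83 ± 0.22 (SE) (95% interval −1.32 to −0.35, adjusted p = 0.0523), and its arrays did not overlap. RT1-DMa passed under 2 other settings. With dim probe sets under the median left out its adjusted p was 0.0405, beside 1204 of 14607 probe sets that passed. With each array centred on its median it was at −0.80 (adjusted p = 0.0498, beside 1145 of 21910). It also passed without exposed replicate 1 (−0.97, adjusted p = 0.0433, beside 5.74% of all probe sets). RT1-DMb had 9.46, 8.75 and 9.20 in exposed blood, against 9.57, 9.81 and 9.80 in control blood (−0.59 ± 0.23 (SE), adjusted p = 0.184). Both DM chains thus had their lowest array in exposed replicate 2.

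RT1-Bb had 10.33, 9.73 and 10.30 in exposed blood, against 10.42, 10.83 and 10.78 in control blood (−0.56 ± 0.19 (SE), adjusted p = 0.140). RT1-Ba had 10.89, 10.38 and 10.81 in exposed blood, against 10.85, 10.95 and 10.98 in control blood (95% interval −0.53 to 0.06). It was the 1 member with overlap. RT1-Da had 10.81, 10.16 and 10.73 in exposed blood, against 10.90, 10.93 and 10.85 in control blood (95% interval −0.70 to 0.05). RT1-Db1 had 8.66, 8.05 and 8.65 in exposed blood, against 8.67, 8.83 and 8.74 in control blood (95% interval −0.62 to 0.03), where exposed replicates 1 and 3 lay just under the lowest control. Cd74 had 12.49, 12.16 and 12.52 in exposed blood, against 12.62, 12.74 and 12.65 in control blood (−0.28 ± 0.10 (SE), adjusted p = 0.161). Ciita had 8.37, 8.07 and 8.21 in exposed blood, against 8.43, 8.54 and 8.69 in control blood (−0.33 ± 0.14 (SE), adjusted p = 0.246). Non-overlap with exposed arrays lower held for 7 of 8 members and for 9.03% of all probe sets.

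Exposed replicate 2 was the lowest of its group for 8 of 8 members, and the mean of the members was 10.16, 9.63 and 10.06 in exposed blood, against 10.26, 10.47 and 10.41 in control blood. Without that array the median difference was −0.21 and RT1-DMa was at −0.68 (adjusted p = 0.181). Without control replicate 2, the library high in neutrophil markers, the median was −0.32, the count stayed 0 and RT1-DMa was at −0.68 (adjusted p = 0.142). Of the pathway genes 2 of 48 rose and 0 fell, beside 3.95% of all probe sets higher. Jak2, a kinase of the interferon-gamma receptor, averaged 10.32 ± 0.15 in exposed blood and 9.94 ± 0.14 in control blood (0.38 ± 0.09 SE, adjusted p = 0.0385). Lamp2, a protein of the lysosome's membrane, averaged 11.86 ± 0.11 in exposed blood and 11.46 ± 0.13 in control blood (0.39 ± 0.10 SE, adjusted p = 0.0423). Each of the pair passed in 2 of 6 fits without 1 array, with adjusted p up to 0.120 for Jak2 and 0.138 for Lamp2. Neither passed with a replicate block (adjusted p = 0.0641 and 0.103), after quantile normalization, without the filter or with only the 6 arrays compared.

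**Figure D4:**
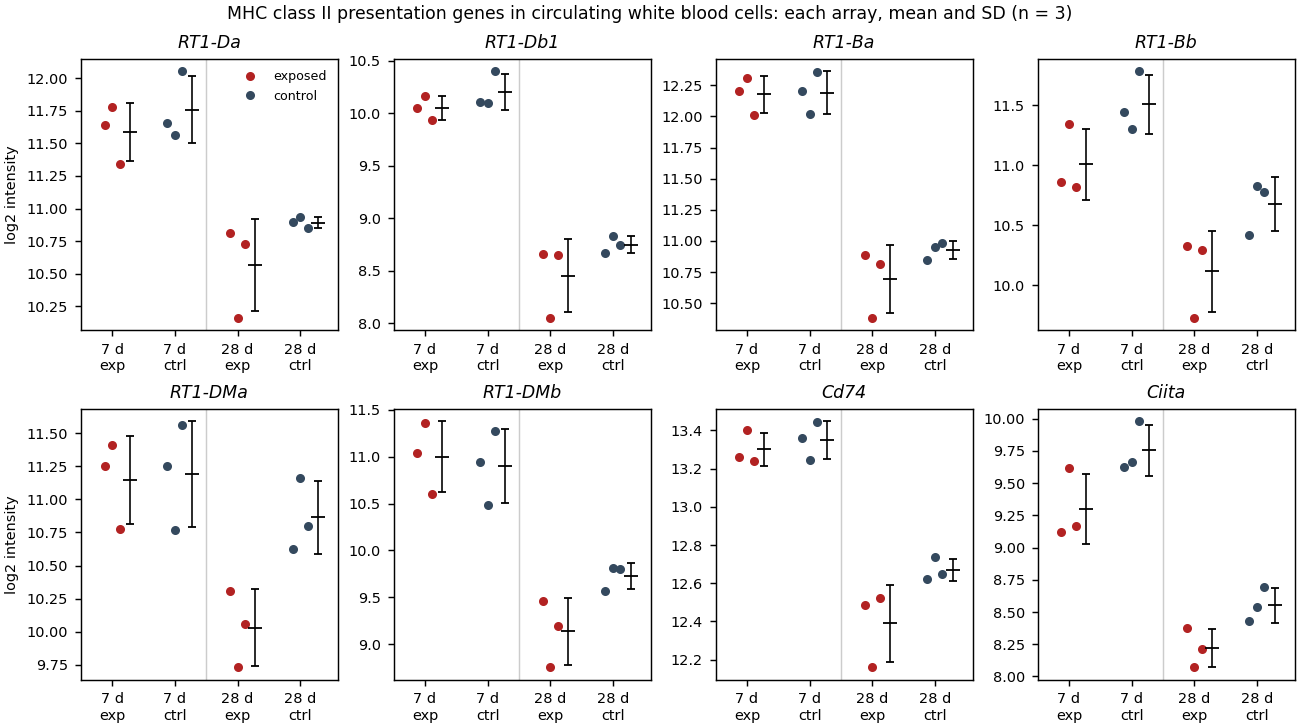
Log2 intensity of each member on every array of white blood cells (points), with the group mean and SD (bars, n = 3), exposed left of control at 7 and 28 days. At 28 days exposed replicate 2 is the lowest exposed point in all 8 panels and the groups overlap for RT1-Ba alone.

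Markers in blood at 28 days included monocytes and macrophages, where 1 of 11 fell, Cd68 (by 1.19), with a median of −0.33 and sums of 2536 to 3314 in exposed blood and 3547 to 5495 in control blood. Dendritic cell markers had a median of 0.04 over 7, and 1 rose, Clec9a (0.66). Of 5 endothelial markers 1 rose, Kdr (0.64). Of 5 B cell markers 1 rose, the complement receptor Cr2 (0.47), the other 4 were below 0 and did not pass, the median was −0.14, and the sums ran from 3406 to 4607 in exposed blood and from 4128 to 5022 in control blood. Of 3 platelet markers 2 rose, Ppbp (0.49) and Gp9 (0.45). T cell markers gave 0 calls of 8. Beside these marker counts, 3.95% of all probe sets were higher and 1.31% lower. Neutrophil marker means were 7.47, 6.91 and 6.41 in exposed blood, against 7.78, 10.49 and 7.68 in control blood, and 0 of 6 passed. Their part in the members' values was not tested. Relative to the leukocyte markers on the same array the members' mean was −1.89 ± 0.11 in exposed blood and −1.60 ± 0.05 in control blood at 28 days, and −1.50 ± 0.20 in exposed blood and −1.22 ± 0.15 in control blood at 7 days (SD, n = 3 each), a description with no test.

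In blood the genes most like the members' mean profile, of 11709, were Pou2f2 (0.0832), P2ry6 (0.0871), Man2b1 (0.0882), Zbtb7b (0.0900) and Bcl11a (0.0925), where a flat profile would be 0.243 away. RT1-Da lay closest to the mean of the other members (0.0854) and RT1-DMa farthest (0.221). In blood the exposure effect at 28 days minus that at 7 days ran from −0.79 for RT1-DMa to 0.12 for Ciita, with a median of −0.19. There were 0 calls, beside 0% of all probe sets, with 1 member and 2528 probe sets at an unadjusted p under 0.05.

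**Figure D5:**
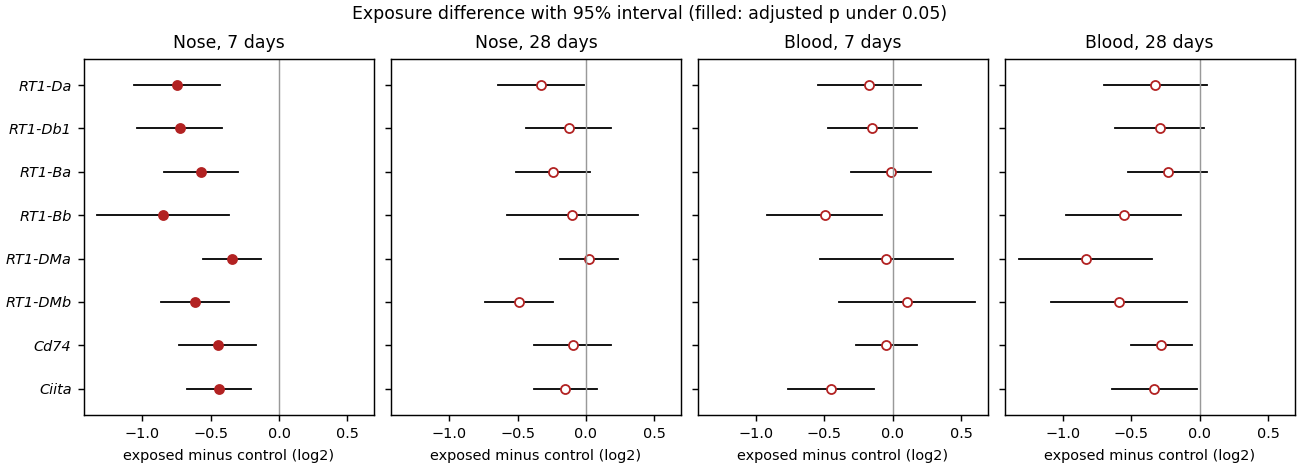
Fitted exposed minus control difference of each member (log2) with its 95% interval in nose and blood at 7 and 28 days, filled where the adjusted p was under 0.05. The 8 filled points are all in nose at 7 days, from −0.85 to −0.35.

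Whether the exposure effect differed between the tissues was tested in a fit of all 24 arrays. That fit, also used for unexposed nose against unexposed blood, took nose and blood arrays as independent. The labels do not say whether same-numbered nose and blood arrays came from the same rat, so its p-values rest on that assumption. At 7 days the effect in nose minus that in blood had 0 calls of 8, beside 10.8% of 20096 probe sets, and 5 members and 5414 probe sets at an unadjusted p under 0.05. The members ran from −0.71 for RT1-DMb to 0.01 for Ciita, with a median of −0.48 against −0.09 over all. RT1-Ba came nearest, at −0.56 ± 0.19 (SE) (adjusted p = 0.0596). Ciita had fitted differences of −0.44 in nose and −0.45 in blood, and the interval of their difference ran from −0.37 to 0.40. Thus a call in nose and none in blood did not, in this fit, amount to a difference between the tissues for any member. Without control replicate 3 of blood at 7 days 2 members passed, RT1-DMb at −0.90 (adjusted p = 0.0408) and RT1-Ba at −0.64 (adjusted p = 0.0465). The share of all probe sets that passed in that fit was 9.2%. Without exposed replicate 3 of blood 1 member passed, beside 7.69%. Without control replicate 2 of blood, high in neutrophil markers, 0 members passed, beside 5.83%, and their median was −0.41.

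Of the pathway genes the same test gave 9 lower and 0 higher of 47, beside 5.65% of all probe sets lower. These were Ctss, Psmb9, Psme2, Ifngr1, Irf1, Psmb8, Irf8, Cd86 and Psmb10. Of them Psme2 and Cd86 did not pass in nose alone, and in blood they were at 0.59 and 0.35, which did not pass either. Ctss differed between the tissues by −1.04 ± 0.22 (SE, adjusted p = 0.00706) and Irf1 by −0.83 ± 0.18 (adjusted p = 0.00743). Without 1 array the count of lower genes ran from 5 to 10, with 6 without control replicate 2 of blood and 5 without exposed replicate 1 of nose. Ctss, Psmb9, Psme2, Irf1 and Psmb8 passed in each of the 12 fits, and Ifngr1 and Cd86 in 3. At 28 days 0 of 8 members passed, beside 5.1% of all probe sets, with 1 member and 4269 probe sets at an unadjusted p under 0.05, and a median of 0.17. RT1-DMa, at 0.02 in nose and −0.83 in blood, differed by 0.86 ± 0.26 (SE) (95% interval 0.31 to 1.40, adjusted p = 0.0597). It passed with dim probe sets under the median left out (adjusted p = 0.0423, beside 1090 of 11883 probe sets). It also passed without control replicate 1 of nose (0.94, adjusted p = 0.0304, beside 12.8% of all probe sets). The same held without control replicate 1 of blood (0.98, adjusted p = 0.0482, beside 4.12%) and without exposed replicate 1 of blood (adjusted p = 0.0342, beside 5.73%).

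The same controls give the levels of class II transcripts in unexposed nose relative to unexposed blood. At 7 days 7 of 8 members were lower in nose, beside 16% of all probe sets, and at 28 days 8 of 8 were, beside 25.8%. These shares moved with the scaling. As deposited, the median over all probe sets was 0.41 at 7 days and 0.20 at 28 days, and the calls were 11796 higher and 3222 lower at 7 days. After quantile normalization the split was 5908 higher and 7998 lower, and with median centring 5325 and 9006. At 28 days it was 9131 higher and 5191 lower as deposited, 6328 and 7910 after quantile normalization, and 5757 and 7981 with centring. Ciita showed the largest gap, −2.02 ± 0.13 (SE) at 7 days (adjusted p = 8.71e-12) and −1.62 at 28 days. RT1-DMb was at −1.20 ± 0.19 (SE) at 7 days (adjusted p = 9.21e-06). Cd74 was at −0.31 ± 0.12 (SE) at 7 days (adjusted p = 0.0233, and −0.16 with adjusted p = 0.233 after quantile normalization) and −0.72 at 28 days. RT1-DMa was the member that did not pass at 7 days, with 11.06, 10.83 and 11.04 in control nose, against 11.25, 10.77 and 11.56 in control blood (−0.22 ± 0.18 (SE), adjusted p = 0.288). With median centring it passed too, at −0.82 (adjusted p = 0.000273), and the median of the members was −1.25, against −0.64 as deposited. For each of the other 7 members the order at 7 days, on the deposited scale, therefore had exposed nose lowest, control nose above it and control blood above both, while no difference between exposed and control blood passed.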

How the data were processed

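Messenger RNA of nasal tissue and white blood cells was hybridised to 24 Affymetrix arrays. The authors deposited a linear normalised intensity for each probe set on each array. Per the submitters' processing notes Partek was used, with no version, and how background was corrected, probes summarised and arrays normalised is not given in the sources used. Here log2 was taken and nothing else normalised. Of the sample columns 0 were unassigned. Groups came from the sample titles. Probe sets with 1 symbol in the platform's gene table numbered 15310 (14506 symbols), 323 had several and 13581 none.

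In R 4.3.3, limma 3.58.1 (lmFit, contrasts.fit, eBayes) was run with 4 group means on each tissue's 12 arrays, or with 8 on all 24 for comparisons between tissues, on probe sets at or above percentile 25 of mean intensity (21910 per tissue, 20096 in both). Tests were two-sided, the Benjamini-Hochberg adjustment covered every probe set retained, and calls needed an adjusted p under 0.05. Precision is limited by having 3 arrays in a group. The members, pathway lists, markers and rules were chosen with earlier results of these data known. All members are named, with the called genes of each pathway list (at most 6) or, where none passed, the 2 with the largest moderated statistic, as far as the text has room, and the 5 genes most like the members in each tissue. Other genes named were chosen after their values were seen.

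Pairing of same-numbered arrays was checked through the correlation of their deviations from group means. Between exposed and control arrays r ran from −0.26 to −0.08 in nose at 7 days and 0.15 to 0.25 in nose at 28 days. In blood it ran from −0.05 to 0.03 at 7 days and −0.35 to 0.07 at 28 days. Between same-numbered nose and blood arrays r ran from −0.20 to 0.17, which does not settle whether they shared a rat. The nasal arrays at 28 days alone met the rule used (each r over 0.1). Values of the other sign lay as far from 0 in other groups, so the rule does not show that these arrays were paired. The labels state no pairing. The fit was tested on simulated data with independent noise and known changes, 100 probe sets at each fold in a comparison. Of 1.5-fold changes it recovered 42% in nose at 7 days, 52% in nose at 28 days, 54% in blood at 7 days and 61% in blood at 28 days. For nose between the days it recovered 12%, and for nose minus blood at 7 days 23%. Of 2-fold changes it recovered 57% and 78% in the last 2 comparisons. Some real comparisons had many more calls, such as 2161 for nose minus blood at 7 days, which makes the adjusted threshold less strict. The simulated rates are therefore not the rates of recovery in the real fits. A count of 0 in the last 2 comparisons still does not show that a 1.5-fold difference was absent. Alternatives varied the filter, scaling, prior, replicate block, threshold, arrays fitted and each array left out. Promoter letters came from RefSeq (GRCr8), searched in Python 3.11.15. Figures were drawn with matplotlib 3.10.9.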

Additional observations from a re-analysis of the deposited data

Results flagged for a closer look

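The exposure effect at 7 days was compared between nose and blood by the test of that difference over all 24 arrays in limma. The test took nose and blood arrays as independent, which the labels do not settle. Of 47 tested genes that work beside the class II members 9 passed, all with nose minus blood below 0. In the same test 5.65% of 20096 probe sets were lower. The values are differences of 2 effects, not falls in nose. In blood alone Psme2 was at 0.59, Cd86 at 0.35 and Ifngr1 at 0.23, and none of the 3 passed. In nose alone Cd86 (−0.37) and Psme2 did not pass. The cysteine protease Ctss differed by −1.04, the immunoproteasome subunits Psmb9 by −0.99, Psmb8 by −0.79 and Psmb10 by −0.59, and the proteasome activator Psme2 by −0.92. The interferon-gamma receptor chain Ifngr1 differed by −0.84, the transcription factors Irf1 by −0.83 and Irf8 by −0.76, and the costimulatory ligand Cd86 by −0.71. Standard errors ran from 0.142 to 0.252 and adjusted p-values from 0.00706 to 0.0394. Without 1 array Ctss, Psmb9, Psme2, Irf1 and Psmb8 passed in each of 12 fits, Psmb10 in 11, Irf8 in 8, and Ifngr1 and Cd86 in 3. With a replicate block Ifngr1 (adjusted p = 0.0609) and Cd86 (adjusted p = 0.0633) did not pass.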

How the results depend on the processing

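Over 32 settings, 24 of which left out an array, 1257 member values were refitted, of which 1171 kept their direction and side of the threshold, 25 no longer passed, 21 newly passed and 40 changed sign. In nose at 7 days, with 8 members called, a replicate block gave 5 calls (RT1-Bb at adjusted p = 0.0540, RT1-DMa at 0.0845 and Cd74 at 0.0845 did not pass) and leaving out an array gave 2 to 8. The replicate block changed no other count of members called, that of the nasal arrays at 28 days included (0). In nose at 28 days, with 0 calls, leaving out an array gave 0 to 1. In blood at 28 days 0 became 1 with the filter at the median, beside 1204 of 14607 probe sets. With median centring it also became 1, beside 1145 of 21910, as it did at adjusted p under 0.1. Leaving out an array there gave 0 to 1. For nose between the days leaving out an array gave 0 to 3. For nose minus blood at 7 days 0 became 3 at adjusted p under 0.1 and 0 to 2 without an array. At 28 days it became 1 with the filter at the median, beside 1090 of 11883 probe sets. It was 1 at adjusted p under 0.1 and 0 to 1 without an array. All probe sets were not counted at adjusted p under 0.1, so the member counts at that threshold have no share beside them. For unexposed nose minus blood at 7 days, with 7 calls, the count was 6 after quantile normalization, 8 with median centring and 5 to 8 without an array, and the median was −0.64 as deposited, −0.83 after quantile normalization and −1.25 with centring. The cause of each was not tested.

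Values that changed sign all had differences that did not pass. RT1-DMb in nose minus blood at 28 days was −0.14 after quantile normalization, RT1-DMa in nose at 28 days −0.0145 and RT1-Bb in blood between the days 0.00324 with median centring. With an array left out, the ranges in nose at 28 days were −0.182 to 0.0113 for Cd74, −0.333 to 0.129 for RT1-Bb, −0.0189 to 0.102 for RT1-DMa and −0.0910 to 0.0220 for RT1-DOb. In blood at 7 days they were −0.102 to 0.0677 for RT1-Ba, −0.26 to 0.14 for RT1-DMa and −0.10 to 0.30 for RT1-DMb. In blood between the days they were −0.299 to 0.0497 for RT1-Da, −0.244 to 0.0604 for RT1-Db1 and −0.19 to 0.14 for RT1-Bb. For nose minus blood they were −0.10 to 0.17 for Ciita at 7 days and, at 28 days, −0.206 to 0.119 for RT1-Da, −0.0342 to 0.289 for RT1-Db1, −0.162 to 0.0898 for RT1-Ba and −0.0914 to 0.262 for RT1-DMb.

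Over all probe sets the calls in nose at 7 days were 3564, 1795 with a replicate block, 6300 with only the 6 arrays compared, 802 without exposed replicate 1 (301 lower) and 846 without control replicate 1 (261 lower). In blood at 28 days they were 1154, 392 with the block and 1 with only the arrays compared, and in nose at 28 days 1, 45 after quantile normalization, 1081 without control replicate 1 and 130 without control replicate 2. In nose between the days they were 22, and 2648 without control replicate 1 of 28 days. In blood at 7 days they were 104, and 2 to 115 without an array. For nose minus blood at 7 days they were 2161, and 1172 without control replicate 2 of blood. Of the pathway genes in nose at 7 days, 9 as reported, 5 were lower with a replicate block, 17 (and 2 higher) with only the arrays compared and 4 to 9 without an array. Averaging several probe sets of a member gave no value, since each has 1. How far a probe set lay above background could not be judged, as the deposited table gives no such measure.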
